A study of Mus musculus with 12 samples.

Results

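Potassium channels are membrane proteins that let potassium ions cross the cell membrane selectively, and the current they carry holds the membrane potential negative. In fibroblasts, whose membranes do not fire action potentials, leak, inward rectifier and calcium-activated channels are the families best known to set the resting potential. Auxiliary subunits do not form the pore, and change how a pore subunit reaches the membrane or opens. The 77 genes described here are those whose symbol in the array's annotation begins with Kcn followed by lower-case letters and a number, out of 17097 genes with an unambiguous probe set. By their names 59 encode pore-forming subunits (28 voltage-gated, 15 inward rectifier, 9 of the leak family K2P, and 7 activated by calcium or sodium), 15 encode auxiliary or interacting proteins, and 3 are non-coding transcripts named after a channel gene. The genes had 141 probe sets between them, and a gene with more than 1 was read from its brightest, by the mean of the 12 arrays.

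The cells came from the dermis of 3 female littermate mice aged 2 days, and each of 4 sorted populations was measured on 1 array per animal. All were sorted as positive for Pdgfra and CD34 and negative for CD45, CD117, CD31 and EpCam, from skin without its subdermal layer. The populations were CD26+ papillary cells (negative for Dlk1 and Sca1), Dlk1- Sca1+ and Dlk1+ Sca1+ cells, both labelled pre-adipogenic and both negative for CD26, and Dlk1+ reticular cells (negative for CD26 and Sca1). Every array used RNA of 4500 cells, amplified over 21 cycles. No allele or treatment is given in the labels, and no strain.

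Levels below are log2 RMA values, a scale on which a step of 1 is a doubling of signal, and each difference between populations is given on that scale with the standard error from limma (SE, n = 3 animals per population). A gene was called at a Benjamini-Hochberg adjusted p under 0.05 over all 17097 genes in limma's test. A level cannot be set against that of another gene, because probe sets differ in how well they bind. In a sorted sample, fewer cells of a kind and less RNA per cell cannot be told apart.

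All 7 fibroblast genes examined, among them Col1a1 and Dcn, were above the dim range (log2 values up to 6.21) in each population, while, of the transcripts of 4 markers sorted against, Ptprc and Kit were within it. Pecam1 was above it in every population, at means of 7.02, 7.68, 8.15 and 7.71 in papillary, Dlk1- Sca1+, Dlk1+ Sca1+ and reticular cells, and was lower in papillary cells in each comparison. Epcam had means of 5.78, 6.89, 6.33 and 6.0 in the same order. Dlk1, whose protein was used in the sort, had means of 9.97 and 11.39 in the populations sorted as negative for it (papillary and Dlk1- Sca1+), against 12.86 and 12.97 in Dlk1+ Sca1+ and reticular cells. In animal 1 the Dlk1- Sca1+ array had Epcam at 8.62, and the summed level of 8 epithelial genes was 77.7 against 57.0 and 57.1 in the other two arrays of that population. This sum was uneven in the other populations too. In animals 1 to 3 it was 65.5, 51.0 and 52.4 in reticular, 58.6, 56.8 and 48.9 in papillary and 61.8, 66.8 and 55.8 in Dlk1+ Sca1+ cells. The summed level of 8 endothelial genes was 52.2 in the Dlk1+ Sca1+ array of animal 2, against 46.0 and 47.8 in the others. All arrays entered the comparisons. Counts are given without the Dlk1- Sca1+ or reticular array of animal 1, and without the Dlk1+ Sca1+ array of animal 2. The Sca1 transcript was not analysed here.

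Of the 77 genes, 19 differed between at least 1 pair of populations (42.1% of all genes did), and 13 passed the F-test over the 4 populations (16.9%, against 35.7% of all genes tested). Papillary cells accounted for most of the calls. They differed from reticular cells in 12 potassium channel genes, with 5 higher and 7 lower, where 27.5% of all genes were called (13.9% higher and 13.6% lower). Against Dlk1+ Sca1+ cells 8 were higher and 7 lower (background 28%, with 14.1% higher and 13.9% lower), and against Dlk1- Sca1+ cells 8 were higher and 4 lower (background 26.4%, with 13.1% higher and 13.3% lower). Each of these shares of the 77 genes, from 15.6% to 19.5%, was below its background. The comparisons with papillary cells share the papillary arrays and are not independent of each other. Among the other 3 populations 4 genes were called in Dlk1- Sca1+ against reticular cells (background 18.2%, with 8.8% lower), 1 in Dlk1+ Sca1+ against reticular cells (background 8.43%, with 4.37% lower) and 1 between the Sca1+ populations (background 7.36%, with 4.13% lower), and in each case the gene was lower in the first-named population. With the animal as a block the first count was 10 and the second 4. Called against each of the other populations were 5 genes highest in papillary cells (Kcna2, Kcnab2, Kcnk2, Kcnk6 and Kcnmb4; 7.97% of all genes were) and 3 lowest there (Kcne4, Kcnj8 and Kcnq1ot1; 7.29% of all genes were). The median difference over the 77 genes lay between -0.06 and 0.01 in the 6 comparisons, and between -0.01 and 0.01 over all genes. All 6 melanocyte genes examined were lower in papillary cells against Dlk1- Sca1+ cells, and their part in that comparison was not tested. Their summed level was 46.6, 39.7 and 36.8 in Dlk1- Sca1+ cells of animals 1 to 3, and 33.7 to 34.6 in papillary cells. Without the Dlk1- Sca1+ array of animal 1 the comparison of papillary with Dlk1- Sca1+ cells had 9 calls, and without the Dlk1+ Sca1+ array of animal 2 that of papillary with Dlk1+ Sca1+ cells had 12. Leaving out the reticular array of animal 1 gave 13 calls for papillary against reticular cells. Without animal 2 the comparison of papillary with Dlk1+ Sca1+ cells had 8 calls, and without animal 3 it had 9.

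The upstream sequences of 3 genes are shown because these genes moved in different ways: Kcnj8 and Kcne4 were lowest in papillary cells and Kcnmb4 was highest there. Each run is the 250 bases before the annotated start of transcription in RefSeq (GRCm38.p6), written 5′ to 3′ on the gene's strand. Capitals mark GGGCGG or its reverse complement. Both strands were searched, for this motif and for the 3 others named after the sequences, which had no match in these windows.
Kcnj8: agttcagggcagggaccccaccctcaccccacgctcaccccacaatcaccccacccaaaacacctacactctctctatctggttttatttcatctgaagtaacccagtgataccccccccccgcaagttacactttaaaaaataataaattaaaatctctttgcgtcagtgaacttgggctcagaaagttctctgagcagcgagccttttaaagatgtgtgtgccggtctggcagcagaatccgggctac
Kcne4: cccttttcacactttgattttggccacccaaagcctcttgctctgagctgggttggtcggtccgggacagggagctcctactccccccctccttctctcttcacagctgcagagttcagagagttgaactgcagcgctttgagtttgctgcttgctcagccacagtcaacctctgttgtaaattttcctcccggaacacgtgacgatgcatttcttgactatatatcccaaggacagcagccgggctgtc
Kcnmb4: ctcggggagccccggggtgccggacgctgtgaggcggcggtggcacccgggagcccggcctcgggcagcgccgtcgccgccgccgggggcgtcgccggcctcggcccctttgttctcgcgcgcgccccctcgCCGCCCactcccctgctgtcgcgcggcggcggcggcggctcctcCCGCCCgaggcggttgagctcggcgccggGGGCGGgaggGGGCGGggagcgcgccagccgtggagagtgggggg
The Kcnj8 window is chr6:142571615-142571864 on the minus strand, the Kcne4 window chr1:78816661-78816910 on the plus strand and the Kcnmb4 window chr10:116473524-116473773 on the minus strand. The 3 windows held 49.2%, 53.2% and 83.6% G and C, with a median of 52% over 27025 promoters. GGGCGG was present 4 times in the Kcnmb4 window and in neither of the others, and 32.9% of all such windows hold it. The motif TATAAA was present in 13% of all windows. The motif CCAAT was present in 34.5% of them. The motif TGGGAA was present in 21.5% of them. These matches describe the letters only.

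Kcnj8, which encodes a pore subunit of ATP-sensitive potassium channels and is known from pericytes and vascular smooth muscle, had the widest spread of the 77 genes. It was at 4.82, 4.74 and 4.62 in papillary cells of animals 1 to 3, at 5.52, 5.69 and 5.40 in Dlk1- Sca1+ cells, at 8.23, 7.75 and 7.88 in Dlk1+ Sca1+ cells and at 8.35, 8.23 and 7.72 in reticular cells. Each Dlk1+ Sca1+ and reticular array was above each papillary and Dlk1- Sca1+ array. Papillary and Dlk1- Sca1+ arrays were all inside the dim range, so folds are given as bounds against its upper end. Papillary cells were at least 3.69-fold lower than reticular cells (difference as measured -3.37 ± 0.16, adjusted p = 6.74e-09) and at least 3.34-fold lower than Dlk1+ Sca1+ cells (-3.23 ± 0.16, adjusted p = 7.13e-09). Dlk1- Sca1+ cells were at least 3.69-fold lower than reticular cells (-2.56 ± 0.16, adjusted p = 2.7e-07) and at least 3.34-fold lower than Dlk1+ Sca1+ cells (-2.42 ± 0.16, adjusted p = 1.93e-06). Kcnj8 was the one gene of the 77 called between the Sca1+ populations. Papillary cells were lower than Dlk1- Sca1+ cells too, by -0.81 ± 0.16 (adjusted p = 0.00176), with both populations inside the dim range. Dlk1+ Sca1+ and reticular cells did not differ beyond their spread, with a difference of -0.15 and a 95% interval from -0.49 to 0.20.

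**Figure D1:**
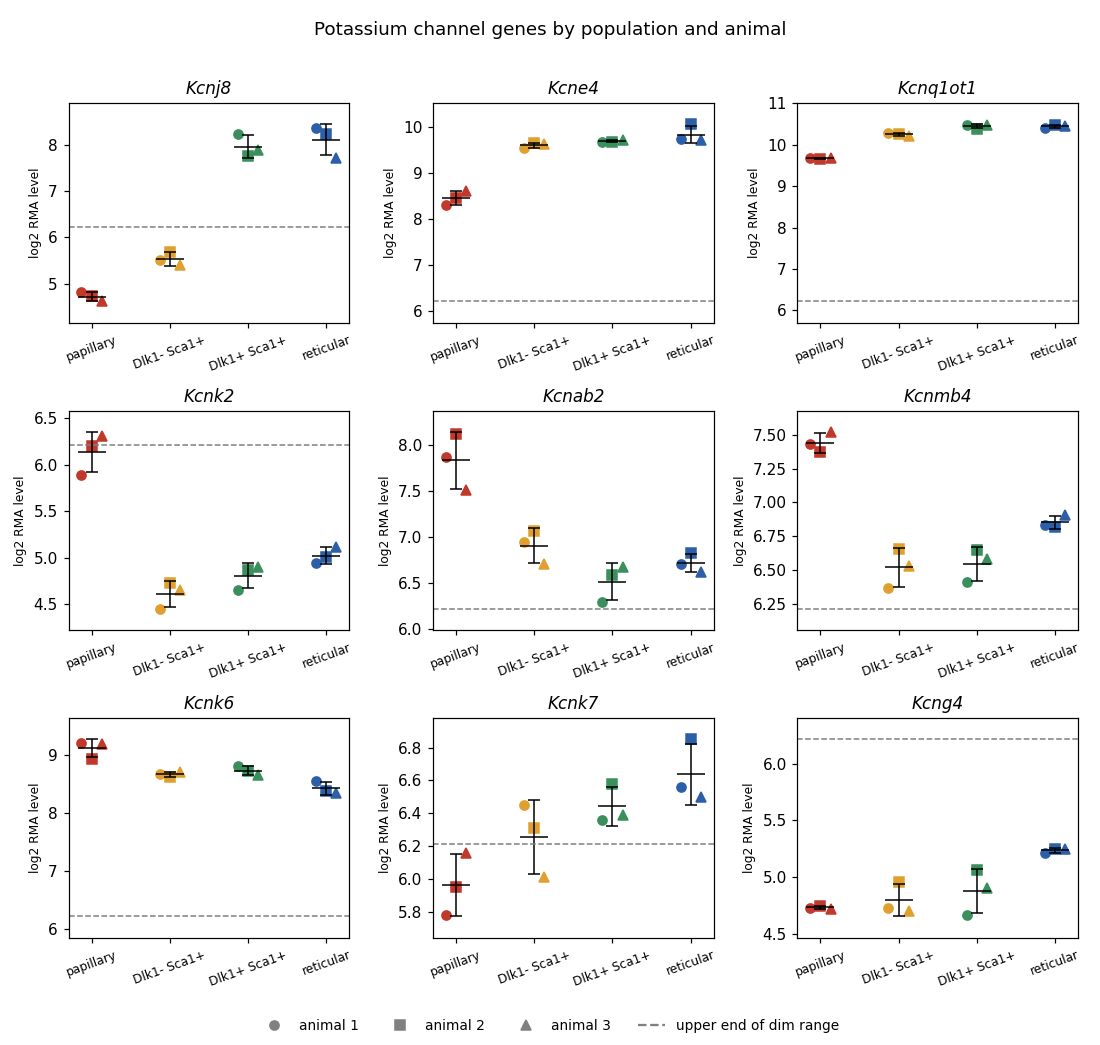
Log2 RMA level of 9 potassium channel genes in each array. Points are animals, horizontal bars the mean and error bars the SD of 3 animals, and the dashed line at 6.21 is the upper end of the dim range. Kcnj8 is at 4.62 to 5.69 in papillary and Dlk1- Sca1+ cells and at 7.72 to 8.35 in Dlk1+ Sca1+ and reticular cells.

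Since Kcnj8 marks mural cells, 9 measured pericyte and smooth muscle genes were read beside it. Of these, 4 were lower and none higher in papillary than in reticular cells (Acta2, Myh11, Notch3 and Pdgfrb), where 13.6% of all genes were lower, and none was called between Dlk1- Sca1+ and Dlk1+ Sca1+ cells. Against Dlk1+ Sca1+ cells 3 were lower in papillary cells (Acta2, Notch3 and Pdgfrb) and 1, Des, was higher (13.9% and 14.1% of all genes were). The same genes were called the same way against Dlk1- Sca1+ cells (13.3% and 13.1% of all genes were). Des means were 6.40, 5.81, 5.88 and 6.09 in papillary, Dlk1- Sca1+, Dlk1+ Sca1+ and reticular cells. The summed level of the 9 genes was 58.5 to 60.2 in papillary, 62.8 to 64.8 in Dlk1- Sca1+, 61.8 to 68.0 in Dlk1+ Sca1+ and 67.2 to 72.6 in reticular cells. Cnn1 and Higd1b were within the dim range in every population. Rgs5, a regulator of G protein signalling and a pericyte marker, was at 6.14, 8.98 and 6.10 in Dlk1+ Sca1+ cells of animals 1 to 3, and at 7.93, 9.52 and 6.54 in reticular cells. Myh11, the smooth muscle myosin heavy chain, was at 6.09, 8.37 and 6.13 in the same Dlk1+ Sca1+ arrays. In the Dlk1+ Sca1+ arrays of animals 1 and 3, in which Rgs5 and Myh11 were within the dim range, other mural genes were above it, with Notch3 at 9.23 and 8.91, Pdgfrb at 9.20 and 9.30 and Acta2 at 8.67 and 8.75. Notch3, Pdgfrb and Acta2 were above it in every population. Their means were 8.23, 8.65 and 7.43 in papillary and 8.74, 9.48 and 9.47 in Dlk1- Sca1+ cells, where Kcnj8 was dim. In Dlk1+ Sca1+ cells the means were 9.08, 9.28 and 8.83, and in reticular cells 10.03, 9.82 and 9.26. Among reticular arrays Rgs5 was highest in animal 2 and Kcnj8 in animal 1. Without the Dlk1+ Sca1+ array of animal 2 all 5 Kcnj8 calls remained. The part of mural cells in the Kcnj8 levels was not tested.

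Genes of other marker lists moved with Kcnj8 as well. Ngfr, a neurotrophin receptor and one of 5 measured genes of a Schwann cell and glial list, had means of 7.49, 7.70, 8.80 and 9.40 in papillary, Dlk1- Sca1+, Dlk1+ Sca1+ and reticular cells, and was called in all comparisons but that of papillary with Dlk1- Sca1+ cells. It was the one gene of its list called, S100b was within the dim range in every population, and the list's summed level was 31.2 to 32.1, 32.2 to 34.7, 33.2 to 34.2 and 33.8 to 34.2 in the same order. Of 8 endothelial genes Kdr and Pecam1 were lower in papillary than in reticular cells, with Kdr means of 5.74, 6.05, 6.37 and 6.95, and none was called between Dlk1- Sca1+ and Dlk1+ Sca1+ cells. Cldn5, Emcn, Tie1 and Vwf were within the dim range in every population. The summed level of the 8 was 44.4 to 45.1 in papillary, 45.3 to 48.4 in Dlk1- Sca1+, 46.0 to 52.2 in Dlk1+ Sca1+ and 47.3 to 49.5 in reticular cells. Of 10 immune and mast cell genes Cd68 had means of 7.01, 7.37, 7.83 and 7.82 in the same order. It was called in all comparisons but that of Dlk1+ Sca1+ with reticular cells. Kit and Fcer1g were the other genes of the list called, and 7 of the 10 had means within the dim range in every population. Among these, Cpa3 was at 7.05 in the Dlk1- Sca1+ array of animal 1, against 4.59 and 4.71 in animals 2 and 3. Mcpt4 was at 5.56, 4.04 and 4.10 in the same arrays.

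A list of 8 skeletal muscle genes moved with Kcnj8 too. The summed level was 47.39 to 47.41 in papillary, 47.1 to 48.2 in Dlk1- Sca1+, 50.5 to 51.4 in Dlk1+ Sca1+ and 53.9 to 55.6 in reticular cells, so the populations high in Kcnj8 were also the higher ones here. In papillary against reticular cells 5 of the 8 were lower and 1 higher (13.6% and 13.9% of all genes were), and in Dlk1- Sca1+ against Dlk1+ Sca1+ cells 3 were lower (Acta1, Mylpf and Tnnc2, against 4.13% of all genes). Myog and Chrna1, which mark muscle precursors and the neuromuscular junction, had population means within the dim range throughout. Chrna1 was the gene that was higher, and it was called higher in papillary cells against each other population. Myod1, also of this list, was above the dim range in every array and called in no comparison. Its means were 6.42, 6.49, 6.63 and 6.63 in papillary, Dlk1- Sca1+, Dlk1+ Sca1+ and reticular cells. The part of the cells these lists mark in the Kcnj8 result was not tested.

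**Figure D2:**
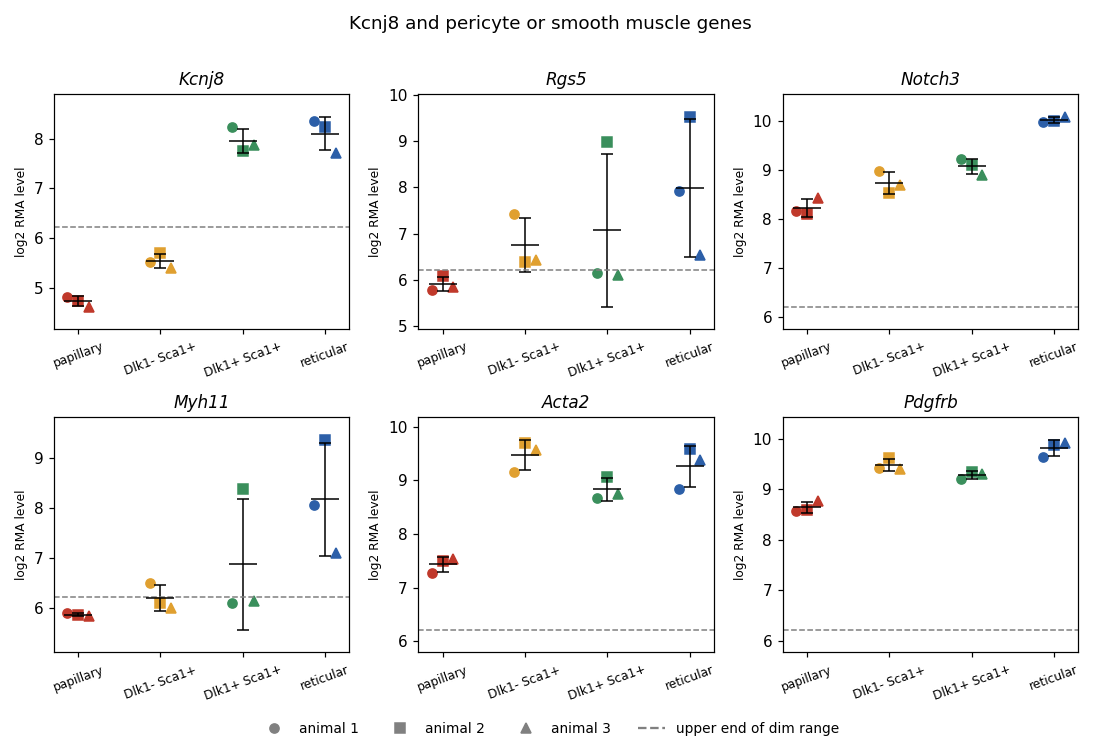
Log2 RMA level of Kcnj8 and 5 pericyte or smooth muscle genes in each array, with points for animals, the mean, the SD of 3 animals and the upper end of the dim range (dashed, 6.21). In Dlk1+ Sca1+ cells Rgs5 and Myh11 are high in animal 2 (8.98 and 8.37), while Kcnj8 lies between 7.75 and 8.23 in all 3 animals.

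The 2 other measured subunits of the ATP-sensitive channel passed in no comparison. Kcnj11, the other pore subunit of these channels, was at 7.92, 7.94, 8.00 and 8.03 as means in papillary, Dlk1- Sca1+, Dlk1+ Sca1+ and reticular cells. Its papillary minus reticular difference was -0.11, with a 95% interval from -0.44 to 0.22. Abcc8, a regulatory subunit, was at 6.46, 6.53, 6.62 and 6.55 in the same order. Abcc9, the neighbour of Kcnj8 on chromosome 6 and the regulatory subunit known to pair with it, was not analysed here. Of the other inward rectifiers, Kcnj5, a subunit of G protein-gated channels, was at 5.38, 5.55 and 5.56 in papillary and at 5.70, 6.0 and 6.04 in reticular cells (-0.42 ± 0.14, adjusted p = 0.0375), a call lost in 7 of 21 alternative settings. Kcnj2, a strong inward rectifier of excitable cells, was higher by 0.30 in papillary cells against Dlk1+ Sca1+ cells, a call lost in 3 of 21 alternative settings. Kcnj13, an inward rectifier of epithelia, was higher by 0.37 in papillary cells against Dlk1- Sca1+ cells, a call lost in 9 of 21 alternative settings. All of these values are inside the dim range. The papillary and Dlk1- Sca1+ values of Kcnj13 overlapped, the one call of 45 in which they did. The remaining 11 of 15 inward rectifier genes were called in no comparison, where 42.1% of all genes were called in at least 1.

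Of the 9 leak channel genes of the K2P family 3 were called in at least 1 comparison (42.1% of all genes were), with 2 of them higher and 1 lower in papillary cells. Kcnk2, which encodes a channel opened by stretch and by lipids, was at 5.89, 6.20 and 6.31 in papillary cells, against 4.45, 4.73 and 4.65 in Dlk1- Sca1+, 4.65, 4.87 and 4.90 in Dlk1+ Sca1+ and 4.94, 5.01 and 5.12 in reticular cells. No papillary array overlapped with another population. Papillary cells were higher by 1.52 ± 0.12 than Dlk1- Sca1+ cells (adjusted p = 4.37e-07), by 1.33 ± 0.12 than Dlk1+ Sca1+ cells and by 1.11 ± 0.12 than reticular cells (adjusted p = 9.91e-06). Kcnk2 was lower in Dlk1- Sca1+ than in reticular cells by -0.41 ± 0.12 (adjusted p = 0.0256). That last call was lost in 6 of 21 alternative settings. The papillary mean of 6.13 lies just under the end of the dim range and 1 of its arrays above it, so no fold is given.

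Kcnk6, another K2P channel, was at 9.22, 8.94 and 9.20 in papillary cells, at 8.67, 8.63 and 8.72 in Dlk1- Sca1+, at 8.81, 8.73 and 8.66 in Dlk1+ Sca1+ and at 8.55, 8.38 and 8.35 in reticular cells. Papillary arrays were above all others, and the difference from reticular cells was 0.69 ± 0.09 (1.62-fold, adjusted p = 6.2e-05). The papillary call of Kcnk6 against Dlk1+ Sca1+ cells was lost in 1 of 22 alternative settings, that without animal 3. With the animal as a block Dlk1+ Sca1+ cells passed against reticular cells (adjusted p = 0.0231, or 0.0549 without it), as did Dlk1- Sca1+ cells (adjusted p = 0.0363, or 0.0809 without it). Kcnk7, a family member for which no current of its own is established, ran the other way. It was at 5.78, 5.95 and 6.16 in papillary cells, against 6.45, 6.31 and 6.01 in Dlk1- Sca1+, 6.36, 6.58 and 6.39 in Dlk1+ Sca1+ and 6.56, 6.85 and 6.50 in reticular cells, and was lower in papillary cells than in the last 2 populations (-0.48 ± 0.13 and -0.67 ± 0.13, adjusted p = 0.0157 and 0.00183). The first of these calls was lost in 4 of 22 alternative settings and the second in 1. Kcnk3, a leak channel closed by acid, was above the dim range in all 4 populations and was called in no comparison (6.86 to 7.04 as population means).

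Auxiliary subunits included 5 called genes out of 15, against 42.1% of all genes. Kcne4 encodes a small membrane protein that dampens some voltage-gated channels. It was at 8.30, 8.46 and 8.61 in papillary cells, at 9.53, 9.64 and 9.62 in Dlk1- Sca1+, at 9.68, 9.68 and 9.72 in Dlk1+ Sca1+ and at 9.73, 10.05 and 9.71 in reticular cells. Papillary arrays were below all others, by -1.37 ± 0.10 from reticular cells (2.59-fold, adjusted p = 4.11e-07), -1.24 ± 0.10 from Dlk1+ Sca1+ cells and -1.14 ± 0.10 from Dlk1- Sca1+ cells (adjusted p = 8.05e-07 and 1.85e-06). No difference among the other 3 populations was called.

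Kcnab2, a cytoplasmic subunit of voltage-gated channels, and Kcnmb4, a subunit of the large-conductance calcium-activated channel, were highest in papillary cells. Kcnab2 was at 7.87, 8.13 and 7.51 in papillary cells, against 6.95, 7.07 and 6.70 in Dlk1- Sca1+, 6.29, 6.58 and 6.67 in Dlk1+ Sca1+ and 6.71, 6.82 and 6.62 in reticular cells. It was higher in papillary cells by 1.32 ± 0.15 against Dlk1+ Sca1+ cells (2.5-fold, adjusted p = 1.75e-05), and its second probe set was called the same way in all 3 papillary comparisons. Kcnmb4 was at 7.43, 7.37 and 7.52 in papillary cells, against 6.37, 6.66 and 6.53 in Dlk1- Sca1+, 6.41, 6.65 and 6.58 in Dlk1+ Sca1+ and 6.83, 6.82 and 6.91 in reticular cells. Papillary arrays were above all others for both genes. Kcnmb4 was higher in papillary cells by 0.92 ± 0.09 against Dlk1- Sca1+ and by 0.59 ± 0.09 against reticular cells (adjusted p = 4.54e-06 and 0.000263), and lower in Dlk1- Sca1+ than in reticular cells by -0.33 ± 0.09 (adjusted p = 0.0207). That last call was lost in 6 of 22 alternative settings. The antisense transcripts Kcnmb4os1 and Kcnmb4os2 were within the dim range and not called.

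Kcnip1, a calcium-binding partner of fast inactivating voltage-gated channels, was at 6.66, 6.54 and 6.81 in papillary cells, against 6.79, 6.81 and 6.81 in Dlk1- Sca1+, 6.92, 7.10 and 7.10 in Dlk1+ Sca1+ and 6.92, 7.51 and 7.14 in reticular cells. It was lower in papillary cells by -0.37 ± 0.13 from Dlk1+ Sca1+ cells and by -0.52 ± 0.13 from reticular cells (adjusted p = 0.045 and 0.00719). The first call was lost in 13 of 22 alternative settings and the second in 1, that without animal 2. Of its 3 other probe sets 1 was called the same way, 1 had the same sign and 1 the opposite sign without a call. Kcnab3, a relative of Kcnab2, was higher in papillary cells by 0.36 against Dlk1+ Sca1+ and by 0.28 against Dlk1- Sca1+ cells, inside the dim range. These calls were lost in 1 and 7 of 21 alternative settings, and its other probe set was not called. Kcne1, a subunit known from slow cardiac current, was above the dim range in every population, at 6.91 to 7.20 over the 12 arrays, and was called in no comparison.

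Of 28 pore subunits of voltage-gated channels 4 were called in at least 1 comparison and 2 by the F-test, against 42.1% and 35.7% of all genes. Kcna2 was at 5.71, 6.08 and 5.63 in papillary cells, against 5.33, 5.45 and 5.28 in Dlk1- Sca1+, 5.11, 5.19 and 5.33 in Dlk1+ Sca1+ and 5.28, 5.45 and 5.29 in reticular cells. It was higher in papillary cells in each comparison, by 0.45 to 0.60, and its 2 other probe sets were called the same way. Kcng4, which encodes a subunit that is silent alone and modifies other channels, was at 4.67 to 5.06 in the arrays of the other populations, all below the reticular arrays at 5.21, 5.25 and 5.25. It was lower in papillary, Dlk1- Sca1+ and Dlk1+ Sca1+ cells than in reticular cells by -0.50, -0.44 and -0.36 (adjusted p = 0.00167, 0.00707 and 0.0409), and it was the one gene of the 77 that was highest in reticular cells in all 3 comparisons (1.85% of all genes were). The Dlk1+ Sca1+ call was lost in 12 of 21 alternative settings, including each in which 1 animal was left out. The Dlk1- Sca1+ call was lost in 1, that without animal 3. All arrays of both genes are inside the dim range. Kcnd1, a pore subunit for fast inactivating current, was at 7.35, 7.34 and 7.25 in papillary against 7.44, 7.77 and 7.97 in Dlk1+ Sca1+ cells (-0.41 ± 0.14, adjusted p = 0.0423), and both its other probe sets were called the same way. Kcna3, known from lymphocytes, was higher by 0.33 in papillary cells against Dlk1- Sca1+ cells (adjusted p = 0.0495). The Kcnd1 call was lost in 9 of 22 and the Kcna3 call in 10 of 21 alternative settings. Kcnc1, Kcnh3 and Kcns3 were above the dim range in all 4 populations and were not called by their brightest probe sets. The other Kcns3 probe set was higher in Dlk1- Sca1+ than in reticular cells by 0.61 (adjusted p = 0.0197, limma over all probe sets).

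Of 7 calcium- and sodium-activated channel genes 2 were called in at least 1 comparison and none passed the F-test, against 42.1% and 35.7% of all genes. Kcnma1, the pore of the large-conductance channel to which Kcnmb4 binds, was at 6.39, 6.38 and 6.28 in papillary cells, against 6.93, 6.57 and 6.79 in Dlk1- Sca1+ and 6.57, 6.63 and 6.98 in Dlk1+ Sca1+ cells. It was lower in papillary cells by -0.41 ± 0.12 and -0.38 ± 0.12 (adjusted p = 0.0222 and 0.0335), while Kcnmb4 was higher there. With quantile normalization repeated neither Kcnma1 call remained, the calls were lost in 7 and 8 of 22 alternative settings, and the second probe set was not called. Kcnn2, a small-conductance channel, was at 5.94, 5.91 and 6.02 in papillary against 5.30, 5.65 and 5.81 in Dlk1+ Sca1+ cells (0.37 ± 0.13, adjusted p = 0.0439), a call lost in 12 of 21 alternative settings. Kcnn3, Kcnn4 and Kcnt1 were above the dim range in all populations and were not called.

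Kcnq1ot1 is a long non-coding RNA transcribed antisense to the channel gene Kcnq1, known for silencing neighbouring imprinted genes, and encodes no channel. It was at 9.68, 9.66 and 9.67 in papillary cells, at 10.28, 10.27 and 10.21 in Dlk1- Sca1+, at 10.47, 10.39 and 10.47 in Dlk1+ Sca1+ and at 10.40, 10.48 and 10.45 in reticular cells. Papillary arrays were below all others, by -0.77 ± 0.06 from reticular and from Dlk1+ Sca1+ cells and by -0.58 ± 0.06 from Dlk1- Sca1+ cells (adjusted p = 1.01e-06, 7.51e-07 and 1.14e-05). All 5 other probe sets were called the same way in each of these comparisons. Kcnq1 itself, a voltage-gated pore subunit, was at 6.49 to 6.71 as population means, above the dim range in all populations but the reticular one, and was not called.

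**Figure D3:**
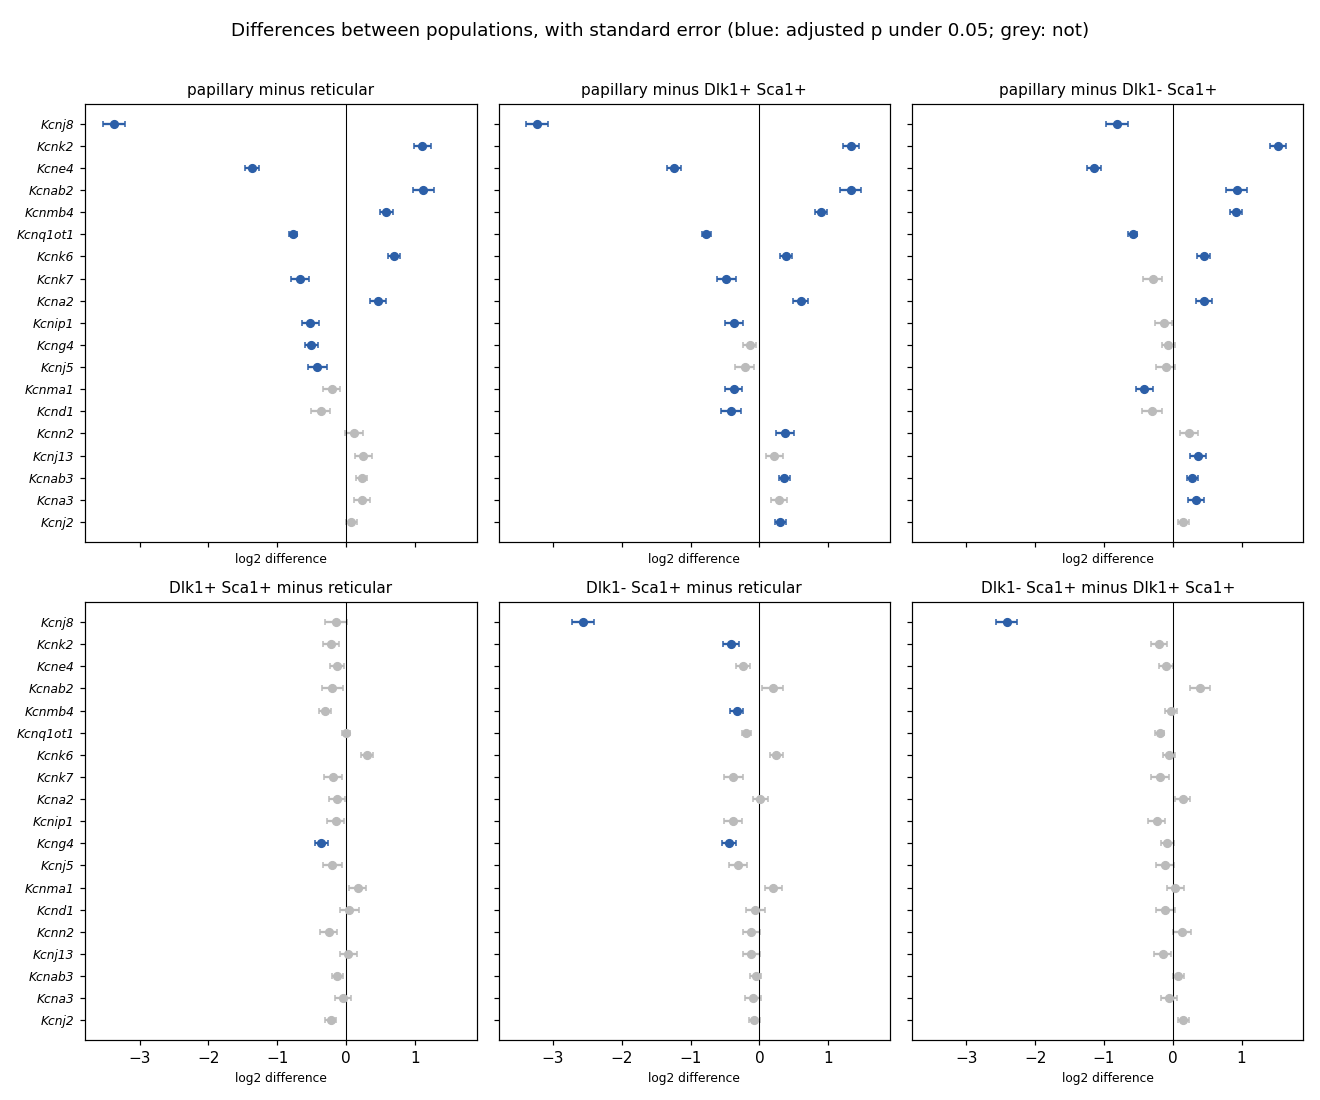
Log2 difference with its standard error for the 19 called genes in each of the 6 comparisons of populations, first-named minus second-named. Blue points passed at an adjusted p under 0.05 and grey points did not, and Kcnj8 has the largest difference in 4 panels, from -2.42 to -3.37.

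Which genes rise above a level expected without transcript was read against 83 chemosensory receptor genes (odorant, pheromone and taste receptors), which fibroblasts are not known to transcribe. Their median was 4.46 and their 95th percentile 6.21, here the upper end of the dim range, and the highest was at 7.69. By this reading 24 of 77 genes (31.2%, against 60.5% of all genes) had all 3 arrays of at least 1 population above the range, and 17 had this in all 4. The share by role was 5 of 7 calcium- or sodium-activated, 3 of 9 K2P, 3 of 15 inward rectifier, 7 of 28 voltage-gated, 5 of 15 auxiliary and 1 of 3 non-coding genes. Just above the range were Kcnn1, Kcna6 and Kcnj1, with 6.30, 6.37 and 6.43 as the lowest array of their best population, and just within it were Kcnk4, Kcna7 and Kcnip2 with 6.21, 6.12 and 6.01. Of the genes above the range in some populations and called in none, Kcna6 spanned 5.99 to 6.58 over the 12 arrays, Kcnd3 5.95 to 6.77, Kcnj1 6.07 to 6.73 and Kcnn1 6.17 to 6.61. Among those above it in all populations Kcnh3 spanned 7.46 to 7.93, Kcnc1 6.70 to 6.99 and Kcns3 6.47 to 7.13. Kcnn3 spanned 6.91 to 7.58, Kcnn4 6.28 to 6.94 and Kcnt1 6.48 to 7.07. With the mean of all probe sets per gene in place of the brightest, 15 genes remained above the 95th percentile. Kcna6, Kcnc1, Kcnd3, Kcne1, Kcnip1, Kcnj1, Kcnj11, Kcnma1 and Kcnn1 were not among them. By the brightest probe set, 13 genes remained at the 99th percentile. At the 95th percentile of 36 tissue-restricted genes, 7.69, 5 remained, namely Kcnq1ot1, Kcne4, Kcnk6, Kcnj8 and Kcnj11. Kcnj8 passed in Dlk1+ Sca1+ and reticular cells alone, and Kcnk7 in these under the 6.21 limit. Of the 19 called genes 9 were inside the dim range in all populations, Kcnk2, Kcna2 and Kcng4 among them.

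**Figure D4:**
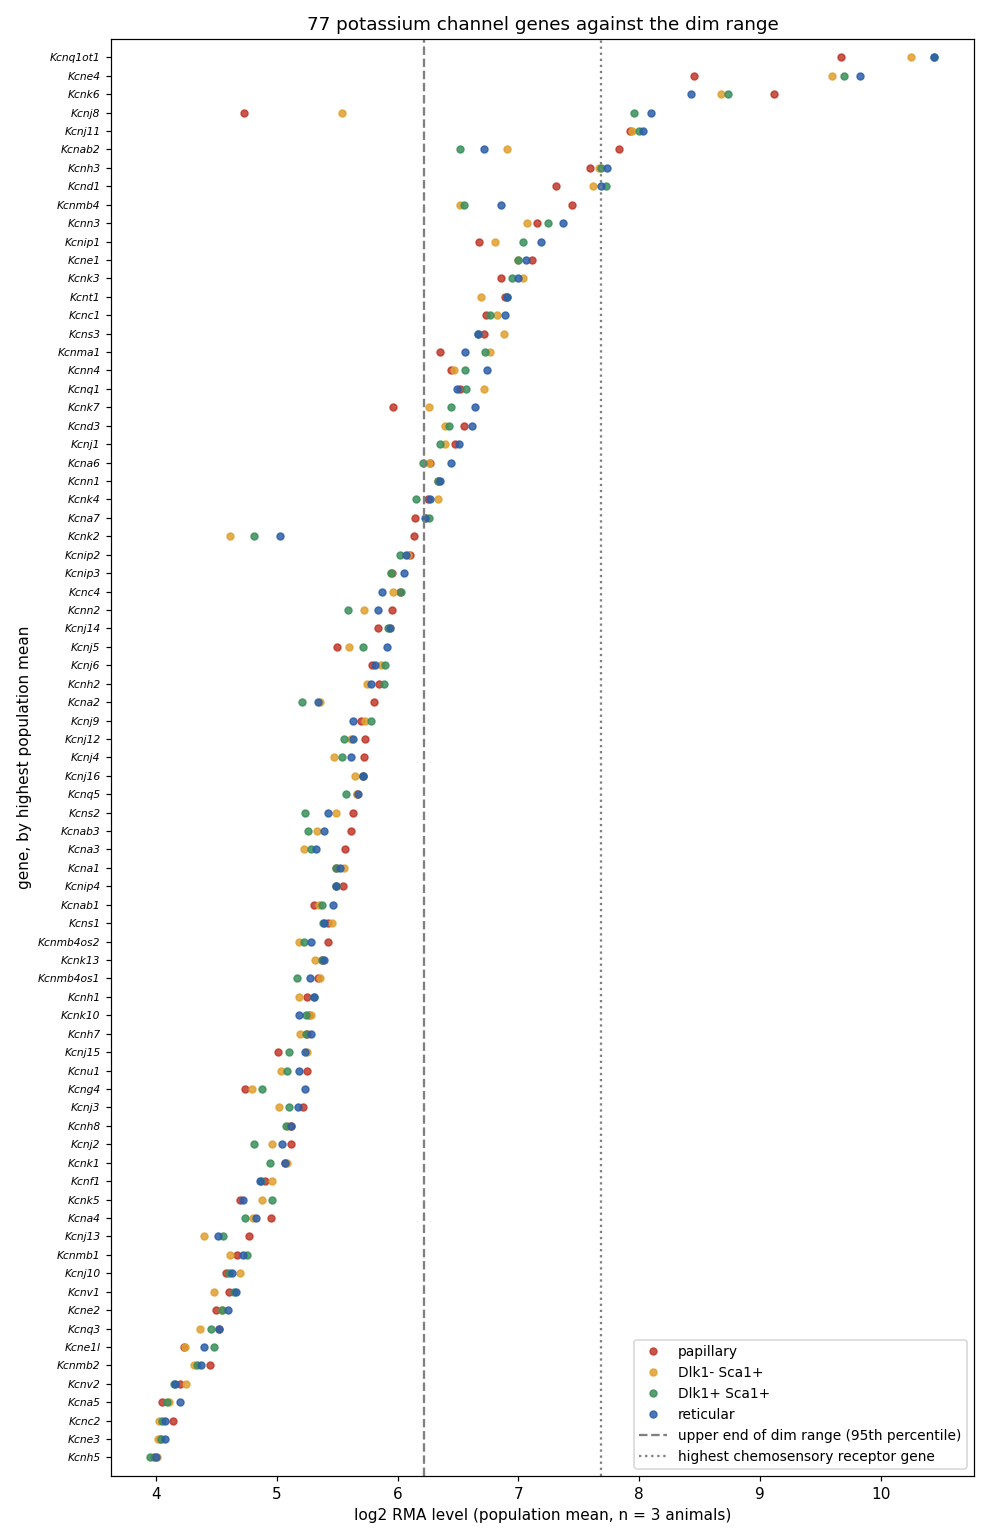
Population means of the 77 genes as log2 RMA levels, 1 row per gene ordered by its highest population mean, with 1 point per population. The dashed line is the 95th percentile of the chemosensory receptor genes (6.21) and the dotted line their highest gene (7.69), and 8 genes have a population mean to the right of the dotted line.

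Lists of other genes of potassium transport, and a list of voltage-gated calcium channel genes, were read for comparison, by the same test. Of 13 measured sodium-potassium pump genes and regulators, 2 were higher and 3 lower in papillary than in reticular cells, where 13.9% and 13.6% of all genes were. Atp1b2, a beta subunit of the pump, was at 6.86, 7.08 and 6.64 in papillary against 8.02, 7.96 and 8.11 in reticular cells (-1.17 ± 0.11, adjusted p = 4.89e-06). Fxyd6, a regulator of the pump, was at 8.80, 8.54 and 8.97 in papillary against 6.29, 5.98 and 6.58 in Dlk1- Sca1+ cells (2.49 ± 0.17, adjusted p = 1.35e-07). Of 8 cation-chloride cotransporters the sodium, potassium and chloride importer Slc12a2 was called higher in papillary cells in each comparison, at 10.06, 9.95 and 10.03 there against 8.93, 8.97 and 8.61 in reticular cells (1.18 ± 0.12, adjusted p = 6.61e-06). Of 22 voltage-gated calcium channel genes, 7 were higher and 2 lower in papillary cells against Dlk1+ Sca1+ cells (14.1% and 13.9% of all genes were). Against reticular cells 3 were higher and 3 lower (13.9% and 13.6% of all genes were). Cacng7, placed in the calcium channel list by its symbol, was lower in Dlk1- Sca1+ than in reticular cells by -2.86 ± 0.14 (adjusted p = 3.39e-08). Tmem38a, an intracellular potassium channel, was higher in papillary than in reticular cells by 0.71 ± 0.12 (adjusted p = 0.000494). No gene was called among 6 measured auxiliary subunits with other names, and the 1 measured HCN channel, Hcn2, was not called.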

How the data were processed

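The authors deposited log2 values for 12 arrays in 1 table. The submitters' processing notes name RMA and affy, with no version, and no genome build is given. RMA corrects background, equalises the arrays' distributions and summarises probe sets, which compresses differences between dim values. Deposited values ran from 3.30 to 13.27. The platform annotation gave 28898 probe sets 1 symbol, 551 several, and left 15588 unnamed. Probe sets with several symbols or none were not used. For each of 17097 genes the probe set of highest mean was taken. In limma 3.58.1 (R 4.3.3) all 12 arrays entered 1 model with a coefficient per population (8 residual and 4.47 prior degrees of freedom), and p-values were adjusted over all genes. The code was tested on simulated data. The number of arrays limits precision. The labels give 3 littermates numbered NB1 to NB3. Deviations of same-numbered arrays correlated at 0.266 on average (17 of 18 pairs above 0.1), and a fit with animal as a block was run as an alternative. A limma fit over all probe sets with 1 symbol was added after seeing the data. In it 8 calls came from another probe set of a potassium channel gene whose brightest was not called in that comparison. These were in Kcna6, Kcnab2, Kcnip1, Kcnk1, Kcnmb1, Kcnq5 and Kcns3. Genes named are those called in at least 1 comparison or by the F-test, those above the dim range, and called genes of the lists, with examples. Members, the 83 chemosensory genes and the other lists were chosen with earlier results of these data known.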

Additional observations from a re-analysis of the deposited data

How the results depend on the processing

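No value of the 45 calls changed direction in any setting, and 26 of them passed in every setting in which the gene was tested, among them all Kcnj8, Kcne4, Kcnab2 and Kcnq1ot1 calls. With the animal as a block no call was lost and 15 were added, and members called were 10 for Dlk1- Sca1+ minus reticular (4 without the block) and 4 for Dlk1+ Sca1+ minus reticular (1 without it). The second count was 4 with repeated quantile normalization, 3 with the mean of all probe sets, 2 with dim genes left out and 0 with the 6 arrays of the 2 populations. Dlk1- Sca1+ minus Dlk1+ Sca1+ had 2 calls in place of 1 with the mean of all probe sets and with an intensity trend. Papillary minus Dlk1- Sca1+ had 7 in place of 12 with dim genes left out, where dim genes such as Kcnk2 were not tested. The number above the dim range was 13 at the 99th percentile, 5 against tissue-restricted genes and 15 with the mean of all probe sets, in place of 24. Leaving out animals or single arrays gave 9 to 14 calls for papillary minus reticular, 8 to 16 for papillary minus Dlk1+ Sca1+ (8 and 9 without animals 2 and 3), 9 to 13 for papillary minus Dlk1- Sca1+, 1 to 6 for Dlk1- Sca1+ minus reticular (1 without animal 3, 2 without the animal 3 array of either population), 0 to 2 for Dlk1+ Sca1+ minus reticular, 1 in each case between the Sca1+ populations, 9 to 15 for the F-test and 22 to 26 above the dim range. Causes were not tested. No detection calls were used, so the dim range rests on other genes' probe sets.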
